A study of Arabidopsis thaliana with 6 samples.

Results

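Introns of at least 1000 bases are rare in Arabidopsis thaliana, whose introns are mostly short. Of 118281 introns in a deposited table of intron retention, 728 were this long. Of these, 37 were marked there as overlapping an annotated exon and were set aside. A further 483 had fewer than 10 reads (mean depth over the intron plus reads spliced across it). The remaining 208 introns, in 206 genes, are described here. Exons of other transcripts lay inside some of them, as given below. The 208 were chosen by length, annotation and reads and not by genotype or by a measure of retention. The reads come without sample names, so a gene higher in either group could meet the minimum through that group alone. Reads spliced across the intron count toward the minimum, so poorly spliced introns with low depth could drop out. Of the 208, 204 lie on chromosomes 1 to 5 and 4 in the organelle genomes.

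The RNA came from ovules dissected from stage 13 to 14 flowers of 6-week-old plants, and each group had 3 libraries. Wild type was compared with plants written as PRP8Aa prp8bb, which carry T-DNA insertions in both PRP8 genes. The ovules of these plants are labelled as a mixture of PRP8A;prp8b and prp8a;prp8b, so every embryo sac in that group lacks an intact PRP8B and part of them also lack PRP8A. The labels do not give the share of ovules that carried both mutant alleles. Replicates are named biological there, but separate plants are not mentioned, and every p-value below rests on spread among libraries that could be technical. PRP8 is the protein at the catalytic core of the spliceosome, and the design asks how ovule RNA differs when its dose falls.

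An intron is removed when the spliceosome pairs its 5′ end, the donor site, with its 3′ end, the acceptor site. In a long intron the donor waits longer for its acceptor, and the intron can hold transposons, whole genes or polyadenylation signals that may end the transcript early. In plants, long introns near the start of a gene often carry regulatory elements, as in the floral regulator AGAMOUS, and some long introns filled with transposons are packed as heterochromatin and need dedicated factors for the transcript to run through.

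Ends of introns that the later results turn on are shown here, from the RefSeq sequence of the TAIR10.1 assembly. Each line gives the last 10 exon bases and the first 20 intron bases of a donor, with the first 6 intron bases in capitals, or the last 20 intron bases and the first 10 exon bases of an acceptor, with the last 3 intron bases in capitals. The first group holds 2 of the longest introns, those of AT3G05410 and AT2G11225, and introns of MADS-box genes, in which the donor letters vary widely.
AT3G05410 donor, chr3:1555386-1555415, plus strand: ccagtttctcGTAAGTaaaaacatcattct
AT3G05410 acceptor, chr3:1561124-1561153, plus strand: gtttattgtttacgataTAGaatcgaagcg
AG donor, chr4:10384137-10384166, plus strand: ctaacaacagGTTTCTtcttcttctcgtgc
AG acceptor, chr4:10387126-10387155, plus strand: ctttaaaaaaattattgCAGtgtaaaaggg
SHP1 donor, chr3:21739367-21739396, plus strand: ccaacaacagGTACGCttctcctactctat
SHP2 donor, chr2:17820819-17820848, plus strand: ccaacaacagGTACACatcttttagctaga
STK donor, chr4:6239208-6239237, minus strand: ccaataacaaGTAAGCcatttcatttcaac
MAF5 donor, chr5:25997846-25997875, plus strand: ccggcgacagGTCTCActctttttaactcc
AT2G11225 donor, chr2:4478917-4478946, plus strand: ccaaaccaaaGTATCCaagcccgatccaat
The second group holds 2 genes in which a pair of long introns shares one end, and an intron that begins with GC in place of GT.
PDF2 donor of the longer intron, chr4:2482018-2482047, minus strand: gtctccaaaaGTAAGAtctctattatcaaa
PDF2 donor of the shorter intron, chr4:2481269-2481298, minus strand: atcgaattgaGTAAGTatttatattattta
PDF2 shared acceptor, chr4:2480221-2480250, minus strand: gtgattttgattttgggCAGtggaagatat
AT4G08460 shared donor, chr4:5380511-5380540, minus strand: gcatcgcctgGTAAGCtcgattttgtaatc
AT4G08460 acceptor of the longer intron, chr4:5378193-5378222, minus strand: gttgttgatttaattagCAGatggggagaa
AT4G08460 acceptor of the shorter intron, chr4:5378812-5378841, minus strand: tgtttgaagttcctcggCAGgaaaatcctg
AT1G11120 donor, chr1:3715534-3715563, plus strand: atctcccaagGCAAGTactttttcacttta

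Long introns were mostly first introns of genes with few introns. Of the 204 on chromosomes 1 to 5, 123 (60.3%) were the first intron of their transcript, against 13.8% of 66704 introns of 76 bases or more, but under 1000, that passed the same read minimum and are called common introns below. Their transcripts had a median of 4 introns, against 10. They lay in the coding part in 178 cases, in the 5′ UTR in 20 (9.80%, against 2.39%), in the 3′ UTR in 5 and in a noncoding transcript in 1. Within the long introns the first-intron share was 70.8% in the shortest of 3 length classes and 48.1% at 1500 bases or more. Common introns over 500 bases lay between the long and the short, with 48.3% first introns and a median of 5 introns per transcript.

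Their end letters differed little from those of shorter introns. GT and AG bounded 202 of the 204, and 2 began with GC, those of AT1G11120 and of the tetraspanin gene TET2. No long intron had the AT and AC ends that mark part of the minor spliceosome's introns. The donor letters GTAAGT, read on the transcript's strand only, stood at 23 (11.3%) of long introns and at 9.18% of common introns. The acceptor letters CAG, read the same way, ended 156 (76.5%) of long introns and 67.5% of the others. The median GC content was 32.1%, against 33.2%. These shares are descriptions of one set of introns and carry no test, since introns are not replicates of a condition.

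Some long introns held other genes and repeats. In the RefSeq annotation 8 of the long introns held a whole other gene, 6 on the opposite strand and 2 on the same strand. The intron of AT1G58602 held the pseudogene AT1G58561 and that of AT3G05410 held the pseudogene AT3G05415. SPL5, a transcription factor gene of the squamosa promoter binding family, lay on the opposite strand within an intron of AT3G15260, a protein phosphatase 2C family gene. By BLAST against the whole reference, with at least 80% identity over at least 100 bases, 31 of the 204 (15.2%) had a similar stretch elsewhere and in 8 (3.92%) such stretches covered at least 50% of the intron. FMO GS-OX2 had the largest covered share, 79.0%, followed by AT2G11225 with 70.5%.

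Most long introns that met the read minimum were spliced out nearly completely, though spliced reads count toward that minimum. The retention ratio is the authors' estimate of the fraction of transcripts that keep an intron, from 0 (always removed) to 1 (always kept). Warnings given with it marked 94 long introns for non-uniform cover, 6 as a minor isoform and 3 for low splicing, and 105 had no warning. Marked introns are kept in all values below. The table that gives the ratio names no sample, so the values below describe the pooled or unnamed ovule RNA and were not compared between genotypes. The median ratio of long introns was 0.0229 (quartiles 0.0086 to 0.0423), against 0.0168 for common introns and 0.0294 for those of 75 bases or fewer. Reads spliced across the intron had a median of 38.5, 34 and 31 in these classes. A ratio of at least 0.1 was found in 23 of 208 long introns, or 11.1% (95% Wilson interval 7.48 to 16.0), against 8.53% (8.32 to 8.75) and 16.7% (15.5 to 18.03). Without the organelle introns the long class had 19 of 204, or 9.31% (6.04 to 14.1), an interval that includes the value of the common introns.

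The length classes differed more at the low end. Only 7 long introns (3.37%) had a ratio of exactly 0, against 23.4% of common introns. A longer intron offers more bases for a stray read, so the share at 0 is not a measure of complete splicing across lengths. This share fell with length among the shorter introns as well, from 27.5% at 76 to 150 bases to 4.79% above 500 bases, while the median number of spliced reads stayed between 33 and 36. The median share of intron bases with any read was 62.1% in long introns and 67.1% in common introns. In the table the ratio equals depth over depth plus the larger count of spliced reads, within 0.001, for 62.5% of long introns and 79.2% of all used, so a ratio is not always set by the printed depth. The 7 long introns with a ratio of 0 had a depth of 0 and no covered base, and included those of NRPD1A, the largest subunit of RNA polymerase IV, of the zinc transporter gene HMA4 and of the proton pump gene HA3, with 14, 11 and 34 spliced reads.

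**Figure D1:**
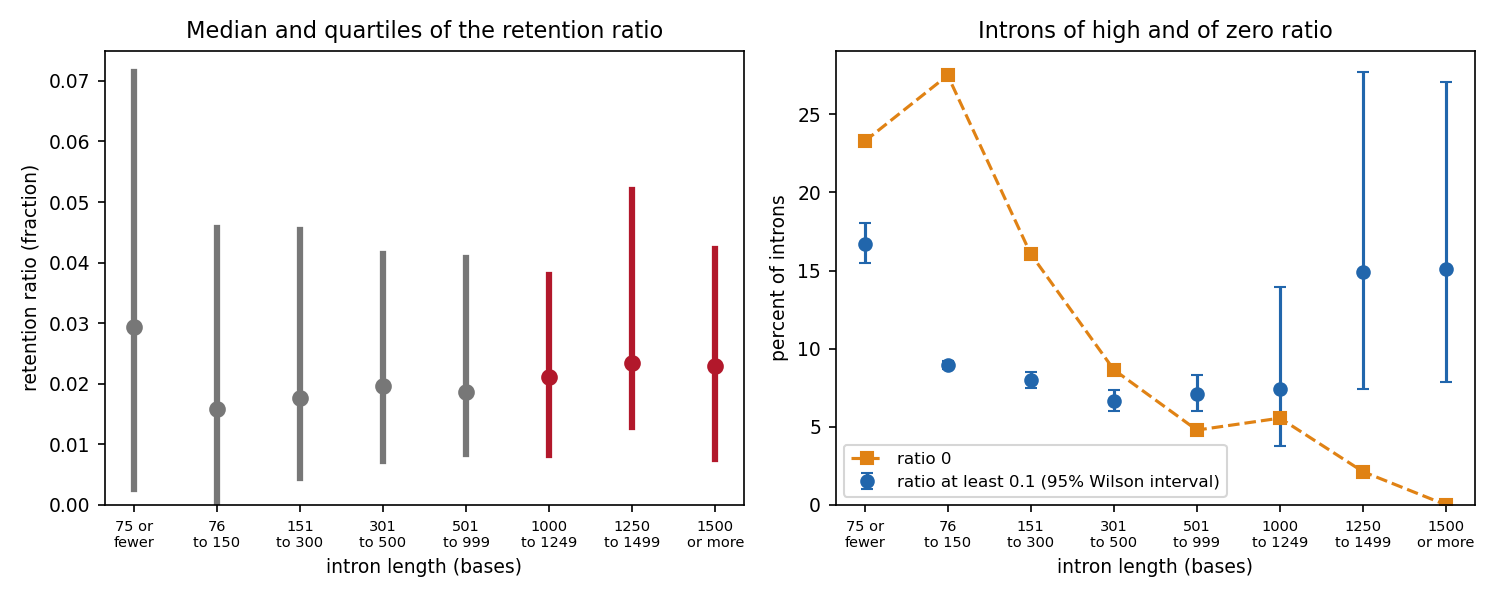
The left panel gives the median (point) and quartiles (bar) of the retention ratio by intron length, with long introns in red, and the right panel gives the percent of introns with a ratio of at least 0.1 and with a ratio of 0. The median of every class from 76 bases up lies between 0.0159 and 0.0235, the share at 0 is 27.5% at 76 to 150 bases and 0% at 1500 bases or more, and the wide intervals of the last 2 classes (14.9% and 15.1% at a ratio of at least 0.1) reflect 47 and 53 introns.

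The longest intron and the next one both had high retention ratios. AT1G58602 (RPP7), a disease resistance gene of the NB-ARC and leucine-rich repeat class, had the longest, 7384 bases at chr1:21746500-21753883 in its 5′ UTR. Its ratio was 0.203, with 10 spliced reads and a mean depth of 2.54. Reads covered 81.7% of its bases, but the first and the last 50 bases both had a depth of 0, so the reads counted as retained lay inside it and not at its ends. AT3G05410, a photosystem II PsbP family gene, had the second longest, 5748 bases at chr3:1555396-1561143, the second of 2 introns. Its ratio was 0.202, with 25 spliced reads, a mean depth of 6.57, and depths of 2.00 and 0.05 in its first and last 50 bases. Both introns are known in Arabidopsis as heterochromatin within a gene, which the proteins IBM2 and EDM2 help the polymerase to cross.

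The other introns among the 5 longest split widely. ABCG25, an exporter of abscisic acid, had an intron of 3388 bases with a ratio of 0.00799 and 52 spliced reads. AG, the MADS-box gene that specifies stamens and carpels, had an intron of 2999 bases with a ratio of 0.0111 and 120 spliced reads. AT2G11225, annotated as an uncharacterized protein, had an intron of 2936 bases with a ratio of 1, no spliced read and a mean depth of 115.1. At 2000 bases or more 3 of 11 introns had a ratio of at least 0.1, and these were AT1G58602, AT3G05410 and AT2G11225.

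**Figure D2:**
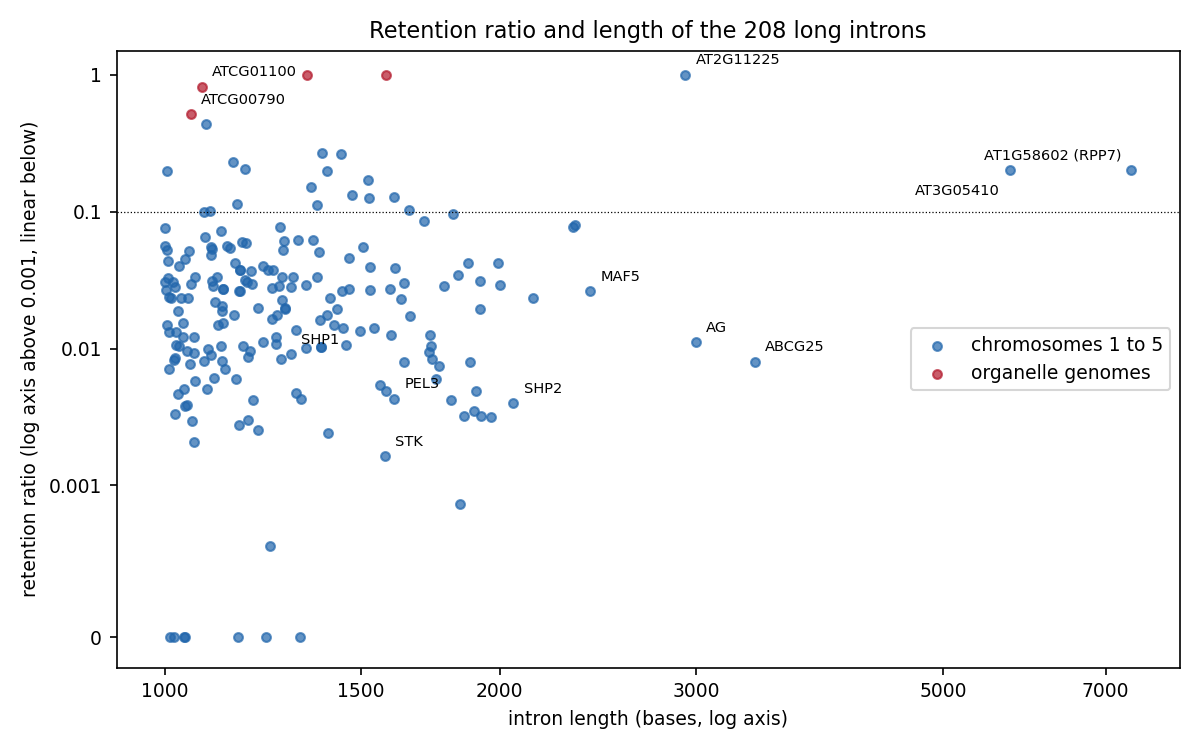
Each point is 1 of the 208 long introns, with its length on a log axis and its retention ratio on an axis that is logarithmic above 0.001 and linear below, and the dotted line marks a ratio of 0.1. The 2 longest introns lie at 0.203 and 0.202 on the right, all 4 organelle introns lie at 0.513 or more, and AG, ABCG25, SHP2 and STK lie at or below 0.0111.

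MADS-box genes, which encode transcription factors of flower and ovule, gave 5 long introns from a list of 27 genes, all of them efficiently removed. STK, which specifies ovule identity and later seed shedding, had the lowest ratio, 0.00163 over 278 spliced reads (1577 bases, second intron). SHP2 had 0.00397 over 143 reads (2056 bases, second intron) and its paralogue SHP1, which acts with it in ovule and fruit, 0.00909 over 137 reads (1298 bases, first intron). AG had the value above, and MAF5, a relative of the flowering repressor FLC, had 0.0263 over 23 reads (2411 bases, first intron). None of the 5 donors carried GTAAGT, as the lines above show, but only 11.3% of long introns on chromosomes 1 to 5 did. Further long introns of the list stayed outside the set. Those of MAF1 and MAF2 overlap an annotated exon and had 57 and 123 spliced reads, and the 3493-base intron of FLC had no read, FLC being at or near 0 in every library.

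The 10 introns of highest ratio among those with at least 10 spliced reads are given next. The first 2 belong to the plastid genome, whose introns are removed without the spliceosome: ATCG01100 had a ratio of 0.820 over 41 spliced reads and ATCG00790 had 0.513 over 283. Both mitochondrial introns, in ATMG00090 and ATMG00160, had ratios of 1 and 0.997 with 0 and 1 spliced read. On chromosomes 1 to 5, HPL1, a hydroperoxide lyase gene of the oxylipin pathway, had 0.264 over 17 reads. ROPGEF14, an activator of ROP GTPases, had 0.231 over 12 reads, and ELF3, a part of the circadian evening complex, had 0.205 over 21. The 2 longest introns come next, followed by the glycine-rich protein gene AT4G08230 (0.199 over 22 reads), the KH domain RNA-binding protein gene AT2G25970 (0.172 over 36) and PHS1, a deaminase family gene (0.151 over 15).

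The 19 introns of chromosomes 1 to 5 with a ratio of at least 0.1 are set beside the other 185 as a description. A high ratio need not mean retention of the whole intron. Among the 19 are AT1G58602, with no depth at either end, and AT2G11225, with no spliced read. The first values below compare the medians of the 19 with those of the 185. Their median GC content was 35.5%, against 31.5%. Their median number of spliced reads was 15, against 45, but spliced reads enter the ratio by which the 19 were chosen. First introns made up 42.1%, against 62.2%. GTAAGT donors were found in 5 of 19, against 18 of 185. At 20 or more reads the share of all long introns with a ratio of at least 0.1 was 8.55% (13 of 152).

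The introns with most spliced reads were those of PEL3 (748 reads), an acyltransferase gene of cutin synthesis also known as DCR, GH9B1 (584), an endoglucanase gene, scpl35 (442), a serine carboxypeptidase-like gene, APT3 (367), an adenine phosphoribosyltransferase gene, and ABCB19 (363), an auxin exporter gene. Their ratios were 0.00431, 0.0196, 0.00321, 0.00751 and 0.00994. In PEL3 the intron is the only one of its transcript and 1607 bases long.

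Alternative use of an end was seen in 2 genes that hold a pair of long introns each. PDF2, a homeodomain gene of the epidermis, has donors that share one acceptor in the 5′ UTR: the donor GTAAGA was joined by 108 reads over 1807 bases and the nearer donor GTAAGT by 13 reads over 1058 bases, out of 121 at the acceptor. In AT4G08460, a DUF1644 gene, the shared donor was joined by 29 reads to the acceptor 2328 bases away and by 6 reads to the nearer one, out of 50 at the donor. The remaining reads of that donor went to ends outside the set. Both patterns come from the table without samples and have no spread between libraries.

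Reads inside long introns lay more often near the donor. Of the 158 introns of chromosomes 1 to 5 with unequal depth at the 2 ends, the first 50 bases were deeper in 97 (61.4%) and the last 50 in 61, while among common introns the donor end was deeper in 46.4%. The direction was the same on both strands, with 41 against 29 on the plus strand and 56 against 32 on the minus strand. It was 67.4% in first introns and 53.6% in later ones. The depths are low, with medians of 1.28 reads at the donor end and 1 at the acceptor end, so no single intron is described by it. HPL1 had a depth of 13.0 at its donor end and 2.00 at its acceptor end, while TUB5 had 2.55 and 12.

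For the comparison of genotypes, gene counts totalled 8497702 to 12644525 per library and exon bin counts 7361474 to 23086207, with wild type replicate 1 lowest in both. In wild type replicate 1 the exon bin counts (7361474) lay below the gene counts (8497702), while in every other library they lay above. In that library 77.6% of nonzero gene counts were even numbers (47.7% to 48.6% in the others), and a fit with its counts halved is among the alternatives. The cause was not tested, and the main fit used the counts as deposited. Mitochondrial genes held 14.5% of the counts in PRP8Aa prp8bb replicate 2 and 2.41% to 6.51% elsewhere. PRP8A (AT1G80070) had 1131, 1139 and 1200 CPM (counts scaled to library size by TMM) in wild type replicates 1 to 3 and 870.6, 956.4 and 946.8 in the libraries labelled PRP8Aa prp8bb, with a log2 fold change of -0.32 (SE 0.10, adjusted p = 0.105). PRP8A passed with DESeq2 (adjusted p = 0.0213) and in none of the other 10 alternatives. PRP8B (AT4G38780) had 36.5, 34.9 and 38.4 CPM against 41.4, 42.8 and 43.8 (log2 fold change 0.22, SE 0.10, adjusted p = 0.251). The 3′ part of PRP8B, its last 9 of 25 exon bins, held 27.8%, 35.7% and 37.8% of its bin reads in the wild type libraries and 32.0%, 6.71% and 18.1% in the others. On this measure replicate 1 labelled PRP8Aa prp8bb lay within the wild type range, against its label. The 3′ part of PRP8A, its last 8 of 24 bins, held 26.2%, 30.8% and 32.0% in wild type libraries and 22.6%, 19.6% and 22.3% in the others, and here replicate 1 lay below all wild type libraries. Counts of called genes, bins and ratios are also given without this library. The ovule markers BEL1, ANT and INO were present at 18.96 to 99.45 CPM in all libraries. Of the 7 ovule markers STK, BAN and EC1.1 were lower, while 2.79% of all genes tested were. The BAN call was lost in 6 of 11 alternatives, the fit without PRP8Aa prp8bb replicate 1 among them. The STK call was lost in 2 and the EC1.1 call in none. The ovule list summed to 255.2 to 360.7 CPM in wild type, against 228.6 to 237.3 CPM in the other libraries. The 3 leaf photosynthesis markers summed to 3034 to 3474 CPM in wild type, against 2563 to 3443 CPM in the other libraries. None of these 3 passed in edgeR, and RCA passed in 3 of 11 alternatives. The 3 tapetum markers summed to at most 0.467 CPM, and the 7 pollen markers summed to 293.0 to 300.5 CPM in wild type, against 255.6 to 666.2 CPM in the other libraries. The pollen marker PPME1 was higher in every library labelled PRP8Aa prp8bb, at 82.4, 33.5 and 64.4 CPM against 17.3, 10.8 and 9.75 in wild type (log2 fold change 2.28, SE 0.39, adjusted p = 0.0241 in edgeR), a call that held in 7 of 11 alternatives. PPME1 was the only 1 of the 7 pollen markers called in the main fit, while 3.05% of all genes tested were higher. Without PRP8Aa prp8bb replicate 2, 4 of the 7 were called higher. The part of pollen or embryo sac RNA in the results below was not tested. In whole ovules fewer cells of a type and less RNA per cell cannot be told apart.

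Of the 206 genes that hold a long intron, 12 (5.83%) were higher in the libraries labelled PRP8Aa prp8bb, 7 (3.40%) were lower and 187 did not pass edgeR's adjusted p of 0.05. Over all 19297 genes tested, 3.05% were higher and 2.79% lower, or 5.85% in all. All 206 host genes passed the filter on low counts, since the rule asks for reads, and their median wild type level was 31.0 CPM against 17.96 CPM for all genes tested. Their median log2 fold change was 0.03, against -0.01 over all genes. Without replicate 1 of the PRP8Aa prp8bb group the counts were 17 higher and 6 lower. They fell to 4 and 3 without wild type replicate 3 and to 5 and 2 without PRP8Aa prp8bb replicate 3, and were 20 and 7 with DESeq2. The counts over all genes moved too, from 589 higher and 539 lower to 257 and 198 without wild type replicate 3, 250 and 181 without PRP8Aa prp8bb replicate 3, 692 and 543 without PRP8Aa prp8bb replicate 1, and 775 and 756 with DESeq2. Calls for NRT1.7, MAF5, AT5G21105, ABCG22, AT2G31110 and TUB5 held in all 11 alternatives tried.

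**Figure D3:**
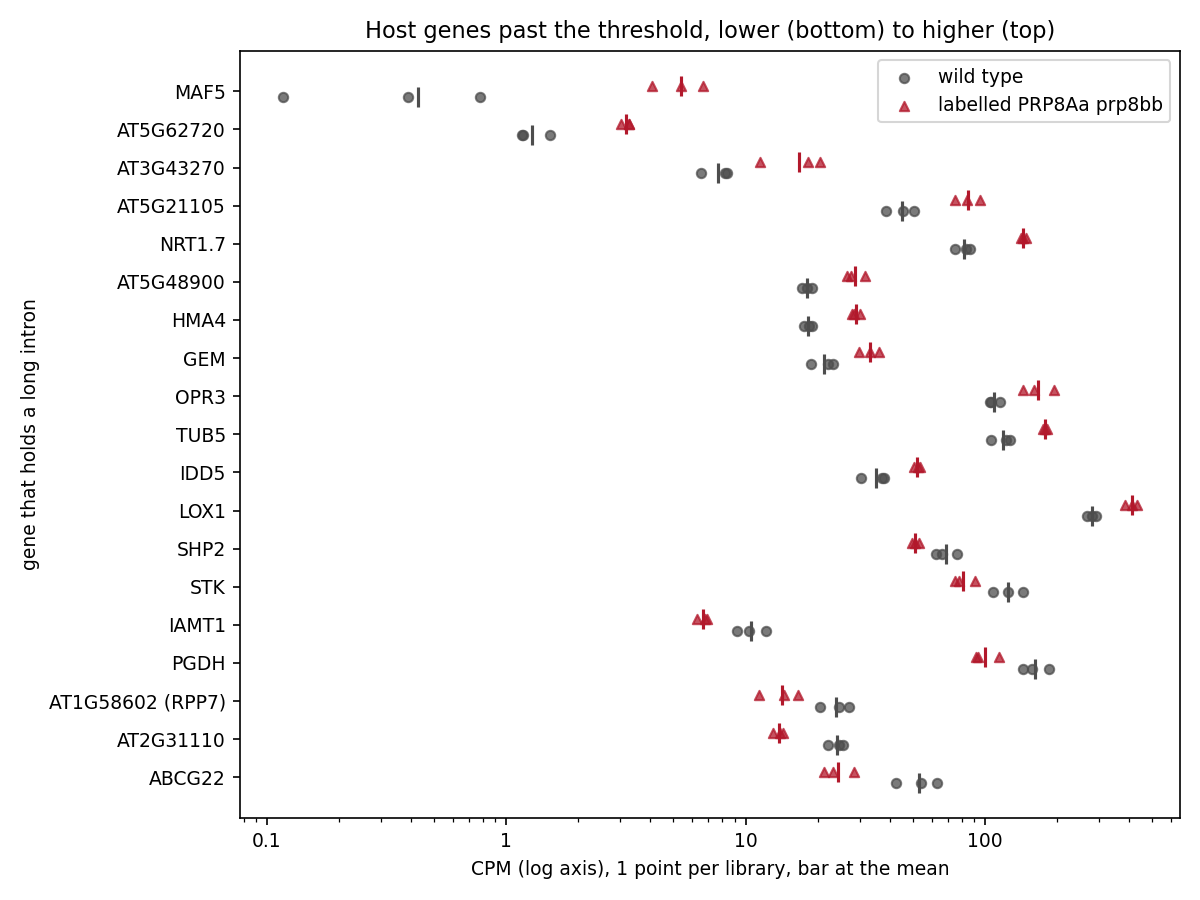
CPM of the 19 host genes past the threshold, on a log axis, with 1 point per library (grey circles for wild type, red triangles for the libraries labelled PRP8Aa prp8bb) and a bar at each group's mean. The 19 were chosen by a test on these same values, so the lack of overlap in all 19 follows largely from that choice. MAF5 at the top shows the widest gap, with group means of 0.428 and 5.36 CPM. Its intron may have met the read minimum only through the libraries labelled PRP8Aa prp8bb.

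The MADS-box genes with long introns moved in different directions. MAF5 had 0.117, 0.780 and 0.387 CPM in wild type replicates 1 to 3 and 6.66, 4.05 and 5.38 in the other group. It was nearly absent from wild type ovules, with 1, 10 and 5 reads counted, and every library of the other group had at least 40 counts. Its long intron, with 23 spliced reads, may thus have met the read minimum only through the other group. Its place among the higher host genes then rests in part on that difference. The fold change was 3.52 on the log2 scale (SE 0.44, adjusted p = 0.00192) and 4.24 without wild type replicate 2. STK had 108.2, 143.7 and 124.7 CPM in wild type, against 90.5, 77.8 and 75.2 in the other libraries. The groups do not overlap, and STK fell by 0.63 on the log2 scale (SE 0.13, adjusted p = 0.0166). Leaving out wild type replicate 3 or PRP8Aa prp8bb replicate 3 ended the STK call, with adjusted p up to 0.112.

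SHP2 had 62.5, 76.7 and 66.3 CPM in wild type, against 53.0, 49.6 and 51.1 in the other libraries, again without overlap. It fell by 0.42 on the log2 scale (SE 0.11, adjusted p = 0.0471), a call lost in 6 of 11 alternatives, among them the fits without wild type replicate 2 or 3 or any single library of the other group. AG had 33.9, 27.1 and 30.1 CPM in wild type, against 40.4, 45.4 and 37.7 in the other libraries. The groups do not overlap, but AG did not pass (log2 fold change 0.44, SE 0.12, adjusted p = 0.0679). It passed in 2 of 11 alternatives, at an adjusted p of 0.0428 when low counts were kept and of 0.0309 without wild type replicate 1. SHP1 had 58.5, 50.7 and 44.6 CPM against 57.0, 44.9 and 51.1, with full overlap (log2 fold change -0.00, SE 0.13, adjusted p = 0.992). Of the 27 listed MADS-box genes 23 were tested, 2 were higher (MAF5 and PI) and 2 were lower (STK and SHP2), with a median log2 fold change of -0.00. Over all genes tested 3.05% were higher and 2.79% lower. The PI call was lost in 6 of 11 alternatives. Without PRP8Aa prp8bb replicate 1 the list had MAF5 higher and STK and AP3 lower, and PI and SHP2 did not pass. The list was written with earlier results of these data known.

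AT1G58602 (RPP7) had 27.0, 20.4 and 24.5 CPM in wild type, against 11.3, 14.5 and 16.6 in the other libraries. The highest library of the second group lay below the lowest wild type library. It fell by 0.76 on the log2 scale (SE 0.17, adjusted p = 0.0262), and the call was lost without wild type replicate 3 (adjusted p = 0.121) and without any single library of the other group (0.0510 to 0.0606). AT3G05410, with the second longest intron, had 7.95, 10.8 and 9.59 CPM against 11.1, 8.52 and 9.43, which overlap (log2 fold change 0.04, SE 0.18, adjusted p = 0.943). Of the 9 listed genes of heterochromatin within introns, among them IBM2, EDM2 and the DNA methyltransferase genes CMT3 and MET1, RPP7 was the 1 lower and none was higher. MET1 missed the threshold (log2 fold change 0.46, SE 0.12, adjusted p = 0.0530 in edgeR) and was called higher in 5 of 11 alternatives, DESeq2 among them. Without PRP8Aa prp8bb replicate 1, MET1 was higher (adjusted p = 0.0320) and RPP7 did not pass. None of the 13 listed genes of cleavage and polyadenylation, the 10 of the U1 particle, which binds donor sites, or the 10 of intron and aberrant RNA turnover passed the edgeR test in either direction. Over all genes tested 3.05% were higher and 2.79% lower. At that share lists this short, the heterochromatin list included, would hold few calls or none.

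Further host genes were higher. NRT1.7, a nitrate transporter gene of the phloem, had 86.6, 75.3 and 83.3 CPM in wild type, against 142.0, 148.3 and 143.9 in the other libraries. The log2 fold change was 0.82 (SE 0.09, adjusted p = 0.00119 in edgeR), and NRT1.7 is named because it passed this test. AT5G21105, an ascorbate oxidase gene, had 38.6, 50.6 and 45.5 CPM against 95.8, 84.5 and 74.8 (log2 fold change 0.92, SE 0.13, adjusted p = 0.00357). The zinc exporter gene HMA4 (log2 fold change 0.66, adjusted p = 0.00723), the pectin lyase-like gene AT5G48900 (0.66, adjusted p = 0.00976) and the invertase and pectin methylesterase inhibitor family gene AT3G43270 (1.11, adjusted p = 0.0160) were also higher.

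LOX1, a lipoxygenase gene, rose by 0.55 on the log2 scale, from a wild type mean of 279.6 ± 11.5 CPM to 410.7 ± 23.2 (SD of 3 libraries, adjusted p = 0.00815 in edgeR). OPR3, which makes the jasmonate precursor, rose from 108.9 ± 6.27 to 166.6 ± 25.1 CPM (log2 fold change 0.61, adjusted p = 0.0156 in edgeR). TUB5, a beta tubulin gene (0.59), IDD5, a zinc finger transcription factor gene (0.57), GEM, a regulator of epidermal cell fate in the root (0.62), and AT5G62720, an HPP family membrane protein gene (1.32), complete the 12. AT5G62720 lost its call in 6 of 11 alternatives, and LOX1 and OPR3 each lost theirs without wild type replicate 3 or PRP8Aa prp8bb replicate 3. HPL1, the hydroperoxide lyase gene with the intron of high ratio above, did not pass (log2 fold change 0.49, SE 0.18, adjusted p = 0.167 in edgeR), with overlapping groups.

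The remaining lower genes were led by ABCG22, a transporter gene of guard cells. It had 42.4, 63.2 and 54.2 CPM in wild type, against 21.3, 28.5 and 23.2 in the other libraries, with a log2 fold change of -1.14 (SE 0.16, adjusted p = 0.00388). AT2G31110, a trichome birefringence-like gene, fell by 0.81 and PGDH, which opens the plastid pathway to serine, fell by 0.70 on the log2 scale. IAMT1, which methylates auxin, fell by 0.67 (adjusted p = 0.0492) and lost its call in 8 of 11 alternatives, DESeq2 among them. The 4 organelle genes did not pass. ATCG01100 had 201.5 to 390.7 CPM and ATCG00790 had 328.8 to 512.4 over the 6 libraries, and ATMG00090 was highest, at 2941 CPM, in the library with the most mitochondrial counts.

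Exon bins cut the annotated exons at every exon end. A skipped exon or a shifted exon end beside a long intron would alter the share of a gene's reads in the bins there. Retention of the intron keeps both flanking exons, and its reads mostly fall in no bin, so this test does not show whether retention changed. Of 441 bins at the ends of long introns or inside them, 412 had enough counts to be tested. None passed diffSpliceDGE of edgeR at an adjusted p of 0.05, and 0% of all 109172 bins did. At an unadjusted p under 0.05 there were 3 of the 412 (0.728%, against 1.44% of all bins), and limma diffSplice called none of them. Without PRP8Aa prp8bb replicate 1, 34 of all bins were called, none of them at a long intron. The smallest p belonged to the first exon of AT2G32240, an early endosome antigen gene, before an intron of 1662 bases in the 5′ UTR. Of all bin counts of AT2G32240, wild type libraries had 2.17%, 4.21% and 2.78% there and the others 1.66%, 1.59% and 1.79%. The groups do not overlap, but the usage log2 fold change of -0.55 had an adjusted p of 1 in edgeR.

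The next bins by p were those beside the introns of AT2G27090 (usage log2 fold change 0.60), the proton pump gene HA2 (-0.31), AGO9 (-0.26), TCP24 (-0.31), YAK1 (-0.23), AT5G11500 (0.23), BSMT1 (0.42), AT1G24040 (0.30) and KAN2 (0.38). Every one had an adjusted p of 1 in edgeR. The long introns described here were not marked as overlapping an annotated exon. What exons inside them add to depth and ratio was not tested. Bins inside a long intron belong to exons of other transcripts, 46 of them in 31 genes. The 15 with enough counts lay in 11 genes, and the smallest p among them was 0.180, for a bin in the longer intron of AT4G08460 with 12, 25 and 29 reads in the wild type libraries and 20, 17 and 8 in the others.

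The amount of transcript past a long intron relative to the part before it was compared as the log2 ratio of exon bin counts 3′ to those 5′ of the intron. Of 200 long introns with counts on both sides, none passed limma at an adjusted p of 0.05, and 0% of all 66660 introns did. At an unadjusted p under 0.05 there were 14 (7.00%, against 4.92% of all introns). The median difference, PRP8Aa prp8bb minus wild type, was -0.06 on the log2 scale (quartiles -0.19 to 0.13), against -0.02 (-0.15 to 0.11) over all introns. It was negative, with less transcript past the intron, in 119 of 200 (59.5%, against 54.1%). Without replicate 1 of the PRP8Aa prp8bb group none of the 200 was called either.

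AT2G32240 had the smallest p. Its log2 ratios were 5.45, 4.497 and 5.11 in wild type, against 5.86, 5.92 and 5.75 in the other libraries, a difference of 0.82 (SE 0.21, adjusted p = 0.921 in limma). All 3 libraries of the second group lay above wild type, and the same first exon carries the bin result above. With the nearest bin on each side in place of all bins the difference was 0.21. AGO9, the Argonaute gene that limits the cells entering the female germ line, had 7.10, 7.05 and 7.27 against 7.40, 7.61 and 7.50 (difference 0.36, SE 0.10, adjusted p = 0.921 in limma). Its intron is the first of 22 and lies in the 5′ UTR. AT2G27090, annotated as a bZIP transcription factor, went the other way, with 5.31, 5.19 and 5.88 against 4.40, 4.37 and 5.21 (difference -0.80, SE 0.26, adjusted p = 0.921 in limma). Its groups overlap by 1 library.

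The others of the 10 smallest p were NRT1.7 (difference 0.40), AT2G25970 (0.40), AT1G24040 (0.59) and the Rab GTPase gene RABA2c (0.59), with more transcript past the intron, and the leaf growth gene TCP24 (-0.57), TET2 (-0.73) and OPR3 (-0.29), with less. All had an adjusted p of 0.921 in limma. With the nearest bins alone the difference of AT1G24040 was 0.15. AG had log2 ratios of 2.07, 2.15 and 2.23 in wild type, against 2.02, 1.66 and 1.78 in the other libraries, without overlap (difference -0.33, SE 0.15, adjusted p = 0.921 in limma). How many introns separate without overlap was not counted, so the separation of AG is not a result about this gene. For STK the difference was -0.28, for SHP2 0.23, for MAF5 0.06 and for SHP1 -0.04. AT1G58602 (RPP7) had 4.92, 4.79 and 3.34 against 3.43, 3.62 and 3.98 (difference -0.68, SE 0.37), which overlap because wild type replicate 3 lay below all the others. AT3G05410 had -0.99, -1.36 and -1.29 against -1.49, -1.33 and -1.81 (difference -0.33, SE 0.25), also with overlap.

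**Figure D4:**
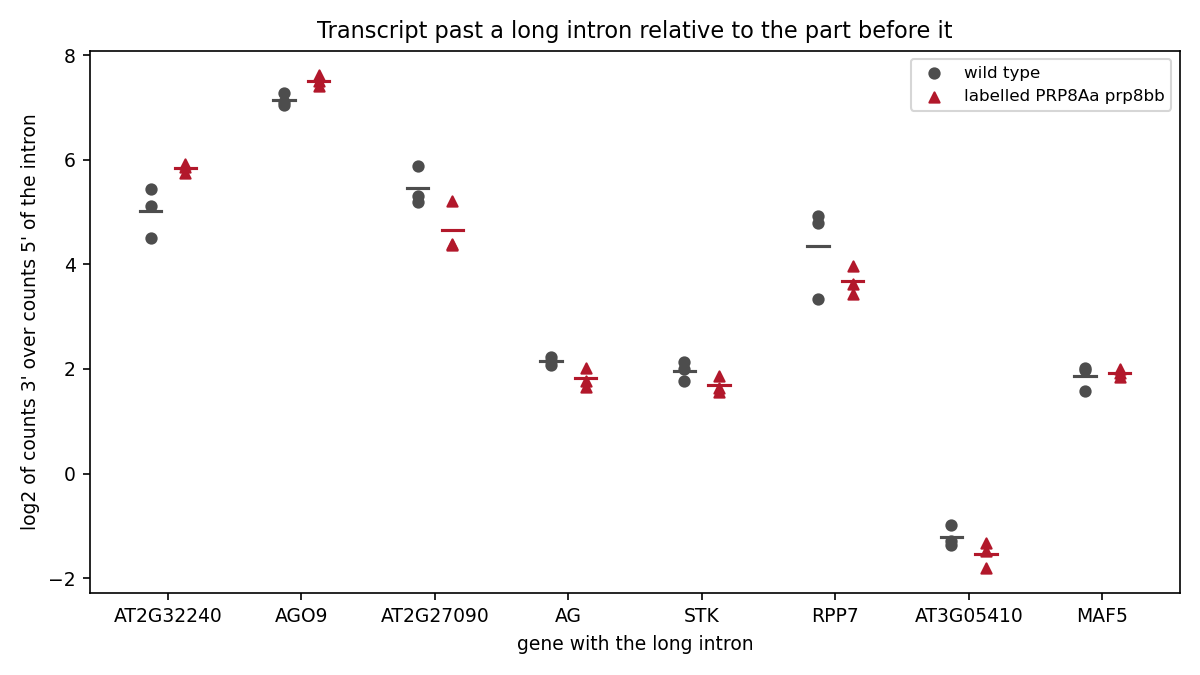
Log2 ratio of exon bin counts 3′ over counts 5′ of the long intron in 8 genes, with 1 point per library and a line at each group's mean. In the libraries labelled PRP8Aa prp8bb, AT2G32240 and AGO9 lie higher and AG lower without overlap, while AT2G27090, RPP7, AT3G05410, STK and MAF5 overlap, and none has an adjusted p under 0.05. AT2G32240, AGO9 and AT2G27090 were picked for the smallest p on these same ratios. How many introns separate without overlap was not counted, so a lack of overlap here is only a description.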

How the data were processed

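Ovule RNA from 3 wild type and 3 PRP8Aa prp8bb libraries was analysed. The deposited counts per gene and per exon bin are raw fragment numbers from featureCounts with strand setting 1, per the file headers. Whether this setting matches the stranded kit named in the labels was not settled, so reads of a gene and of an antisense partner may not be told apart. Trimmomatic, STAR, Subread 1.6.0 and DESeq2 on TAIR10 are named in the submitters' processing notes. In the deposited intron table the authors give a mean depth (signal, or coverage) per intron, reads spliced (counts) and the retention ratio (a fraction). That table has no header and names no sample; its columns were recognised from the layout of IRFinder's directional output, whose version and settings are not given in the sources used here. A planned test of the ratio between genotypes was therefore not run. The introns and the gene lists were chosen with earlier results of these data known. Gene counts were tested with edgeR 4.0.16 (TMM, quasi-likelihood, Benjamini-Hochberg over all genes tested, threshold 0.05) in R 4.3.3, and the SE is the log2 difference divided by the root of F. Exon bins were tested, where 3 or more libraries had 10 or more counts, with edgeR's diffSpliceDGE. The log2 ratio of bin counts 3′ to 5′ of an intron (pseudocount 0.5, at least 10 counts on each side in at least 3 libraries) was tested with limma 3.58.1. DESeq2 1.42.0, upper-quartile factors, no filter, halved counts of wild type replicate 1, a replicate block and each library left out were alternatives. Scripts were tested on simulated data. Named introns are the 5 longest, the 10 of highest ratio with at least 10 spliced reads and the 5 with most spliced reads; named genes are called host genes (10 of smallest p in each direction), list members with a long intron, and the 10 smallest p among bins and among ratios, 1 per gene; other names were chosen after their values were seen. Similar stretches were found with BLAST 2.17.0. Wilson intervals (95%) cover counting error only. The end sequences of 1 long intron are not reported here.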

Additional observations from a re-analysis of the deposited data

How the results depend on the processing

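The 12 higher and 7 lower host genes moved with the fit. DESeq2 and no filter on low counts both gave 20 higher, while all genes went from 589 higher to 775 and 729. Leaving out 1 library at a time gave 4 to 18 higher and 2 to 8 lower. Replicate numbers did not pair the samples (correlations of same-numbered deviations -0.0601, -0.0753 and 0.127), and a replicate block gave 13 higher and 4 lower, losing AT1G58602, AT5G62720, SHP2 and IAMT1. The share of long introns with a ratio of at least 0.1 was 27.3% at 2000 bases or more, a class of 11. Leaving out organelle introns, an alternative chosen after seeing the data, gave 9.31%. SHP1, near 0 in the main fit, had log2 fold changes of 0.0023 with DESeq2, 0.0039 without the filter, 0.0058 with halved counts, and -0.0971 to 0.0994 with 1 library left out (0.0818 without PRP8Aa prp8bb replicate 2). For bins and for the 3′ to 5′ ratio no long intron was called under any alternative tried. The causes were not tested. Few spliced reads limit the introns of high ratio.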

Other observations

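Genes of one family that hold long introns, grouped after their values were seen, gave unlike values. Of 4 long introns in genes of KH domain RNA-binding proteins, 3 had a ratio of at least 0.1: AT4G10070 (0.200 over 8 spliced reads), AT2G25970 (0.172 over 36) and AT1G33680 (0.132 over 31), each the last intron of its transcript. The intron of the flowering regulator FLK had 0.0373 over 80 reads. Of 6 long introns in genes of mitochondrial complex I subunits, none reached 0.1, with ratios of 0.00253 to 0.0262 and 15 to 225 spliced reads. None of the genes of either family passed the edgeR test between genotypes, against 5.85% of all genes tested.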
